A study of Mus musculus with 8 samples.

Results

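The comparison described here is that of progenitors without miR-223 against wild-type progenitors, both taken after 4 days of culture from mouse bone marrow. It rests on 4 of the 8 arrays of the study, 2 from null cells and 2 from wild-type cells, picked by genotype and day as the sample titles give them. The wild-type group and the null group were both grown with granulocyte colony-stimulating factor (G-CSF) and stem cell factor (SCF) for 4 days and sorted for cells that carry c-Kit and lack Gr-1, so both groups share culture, factors and gate. The other 4 arrays, used here as a reference for spread and stage, came from Gr-1 positive, c-Kit negative neutrophils of the same 2 genotypes, cultured for 6 days with both factors and then for 42 hours without SCF. The sources used here do not give strain, sex, age, the number of animals or the way the null allele was made, and whether the 2 arrays of a group came from separate cultures is not stated either. The p-values therefore measure the spread between arrays, which may be technical.

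MicroRNAs are short RNAs that guide Argonaute proteins to messenger RNAs, mostly through pairing of the seed, bases 2 to 8 of the microRNA, with the 3' untranslated region of the target. Pairing lowers translation and messenger RNA stability, so that direct targets tend to be more abundant where the microRNA is missing. miR-223 is made mainly in the myeloid lineage and increases as granulocytes form. G-CSF drives that lineage, and SCF, the ligand of c-Kit, keeps progenitors dividing.

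The missing molecule is shown first, because it is the only designed difference between the groups. In RefSeq (GRCm38.p6) the mouse hairpin lies on the plus strand at chrX:96242817-96242926, inside the long non-coding RNA gene F630028O10Rik, with the protein-coding genes Msn (moesin, a membrane-cytoskeleton linker) and Vsig4 (a complement receptor of macrophages) as its nearest coding neighbours. The 110-base hairpin is printed with both mature arms in capitals, followed by each arm with its seed in capitals.
Mir223 hairpin: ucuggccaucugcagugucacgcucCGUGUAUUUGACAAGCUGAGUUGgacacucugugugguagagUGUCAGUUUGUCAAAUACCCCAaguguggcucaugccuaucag
mmu-miR-223-3p: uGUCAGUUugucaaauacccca
mmu-miR-223-5p: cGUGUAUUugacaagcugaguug
A messenger RNA that pairs with the seed of the 3p arm holds AACUGAC, and one that pairs with the seed of the 5p arm holds AAUACAC. Each seed occurs in 1 of the 1679 mature mouse microRNAs of that table, that is, in miR-223 alone. No other microRNA of the table thus has the seed that the null cells lack.

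The arrays were Affymetrix arrays, on which a probe set is a group of short probes for 1 transcript, and the deposited table gives 1 log2 signal for each probe set and array. Of 45037 probe sets that are not controls, the brighter 22519 were tested, those whose mean signal of the 8 arrays was at least the median of all such means (5.51). At that border the lowest mean kept and the highest mean left out were both 5.51. The table names no genes and 0 of its identifiers occur in the RefSeq gene table, so nearly all results below are on probe sets, with identifiers for the 2 largest rises and the 2 largest falls. Transcripts of miR-223, its targets, c-Kit, Gr-1 and markers of other cell types were for that reason not analysed here. In these sorted but bulk samples, a change in the share of some cells and a change in the RNA per cell cannot be told apart.

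The 2 null arrays were closer to each other than the 2 wild-type arrays. Over the tested probe sets the null replicates correlated at 0.997 (Pearson's r, across probe sets of the same arrays) and the wild-type replicates at 0.993. The median absolute difference between replicates was 0.0815 on the log2 scale in null cells and 0.137 in wild-type cells. Wild-type replicate 2 resembled the null arrays (r = 0.992 with each) nearly as closely as its own replicate, and wild-type replicate 1 was the array farthest from the null (r = 0.990 and 0.989). A principal component analysis of these 4 arrays alone placed the genotypes on either side of zero along the first component, which held 58.8% of the variance. Wild-type replicate 1 lay at -23.4, wild-type replicate 2 at -9.66, and the null arrays at 15.3 and 17.7. The second component (27.6%) parted the wild-type replicates from each other, at 12.6 and -19.3, while the null arrays lay at 4.76 and 1.97. Every count below therefore leans on how far apart the wild-type arrays are, and the value without each of them is given where it matters.

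Progenitors without miR-223 had more probe sets lowered than raised. Limma, with 1 model over all 8 arrays and Benjamini-Hochberg adjustment over the 22519 probe sets, called 613 at an adjusted p below 0.05 (2.72%): 131 were higher in null cells (0.582%) and 482 lower (2.14%). Most changes were modest. Among the calls 77 rises and 255 falls lay between 1.25-fold and 1.5-fold, and 35 rises and 158 falls between 1.5-fold and 2-fold. Called rises of 2-fold or more numbered 13 (0.0577%) and called falls 48 (0.213%). At 4-fold or more, 3 rises and 5 falls remained. Over all tested probe sets, called or not, the median log2 change was -0.006, 81.6% changed by less than 0.25 in either direction, and the 1st and 99th percentiles were -0.63 and 0.47. The longer tail was on the lower side, with a 5th percentile of -0.36 and a 95th percentile of 0.29.

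**Figure D1:**
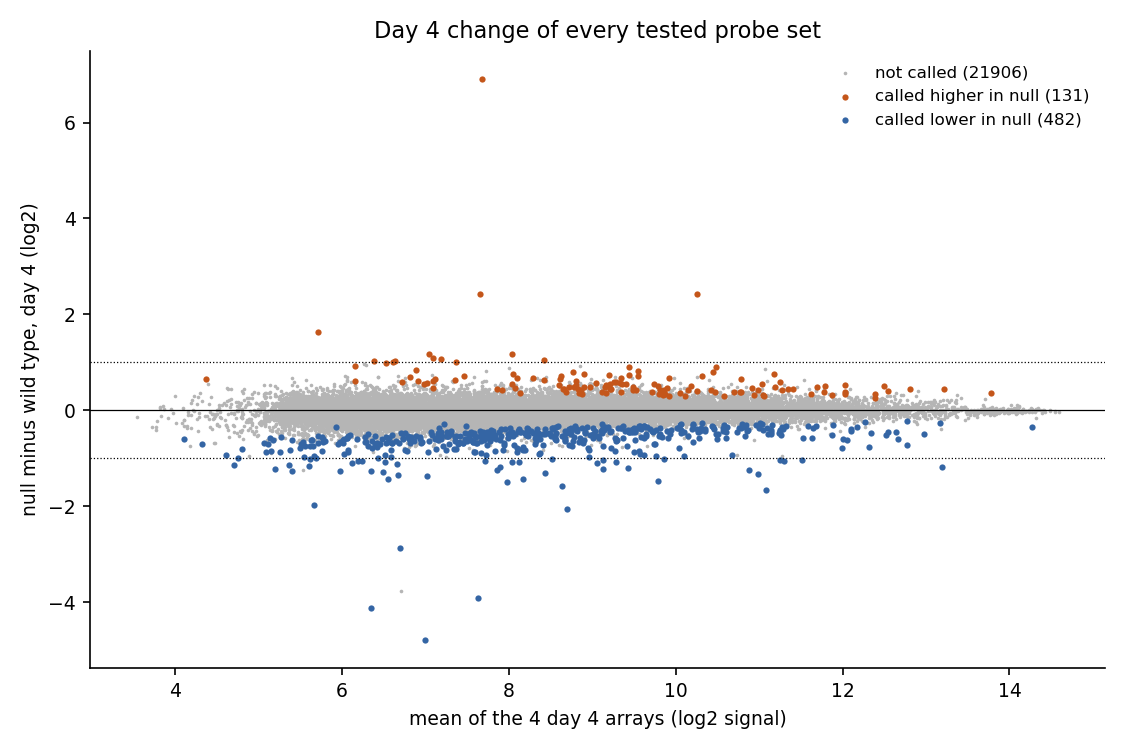
Change of each of the 22519 tested probe sets between null and wild-type day 4 progenitors (y axis, log2, null minus wild type) against its mean over the 4 day 4 arrays (x axis, log2 signal). Orange points are the 131 called higher, blue points the 482 called lower and grey points those not called; dotted lines mark 2-fold, and more blue than orange points lie beyond them (48 against 13 calls).

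The direction of that balance depended on the scaling. With each array scaled to its 18 hybridization control probe sets (bacterial and phage transcripts added with the hybridization mix), the day 4 calls were 221 higher and 205 lower, so 51.9% were higher against 21.4% as deposited. That scaling moved the median log2 change of all tested probe sets from -0.006 to 0.086. After cyclic loess the split was 34.3% higher. The mean signal of those controls was 9.86 and 9.88 on the wild-type arrays and 9.75 and 9.81 on the null arrays, so both null arrays lay below both wild-type arrays. Scaling to these controls, or to the same median, moves every day 4 change by the same amount. That amount was smaller than any called change (smallest rise 0.261, smallest fall -0.223), so no sign could turn. After cyclic loess and quantile normalization, which shift probe sets unequally, all 613 called probe sets kept their sign as well. The number passing the threshold moved.

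The 613 calls were all probe sets whose 2 null arrays lay entirely above or entirely below the 2 wild-type arrays. That alone was common, since 48.9% of all tested probe sets had day 4 arrays without overlap, 27.8% with the null lower and 21.1% with the null higher. A stricter description sets the gap between the groups against the replicates. In 121 of the 131 rises and 426 of the 482 falls the gap between the nearest arrays of the 2 genotypes was wider than the difference between replicates in either genotype, against 3853 of all 22519 tested. The calls were picked on the same arrays for a change large beside the spread, so this excess is largely built in. An exact permutation test over 2 and 2 arrays has 0.333 as its smallest p, so each call rests on the spread that limma shares across probe sets and groups.

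The 2 wild-type arrays did not contribute evenly to the falls. Wild-type replicate 1 was higher than replicate 2 in 345 of the 482 falls (71.6%), against 42.5% of all tested probe sets, and in 38 of the 131 rises (29.0%). Replicate 1 thus stood farther from the null than replicate 2 in most calls of either direction. The null arrays showed no such lean: replicate 1 was higher in 49.8% of the falls and 55.7% of the rises, against 50.7% of all. Without wild-type replicate 1 the count of calls was 217 (44 higher, 173 lower), and without wild-type replicate 2 it was 1674 (701 higher, 973 lower). Without null replicate 1 or 2 it was 129 and 140. Of the 613 calls, 192 were called again without wild-type replicate 1 and 526 without wild-type replicate 2. Fitted on the 4 day 4 arrays only, without the day 8 arrays to inform the spread, 98 probe sets were called (30 higher, 68 lower), 95 of them among the 613.

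**Figure D2:**
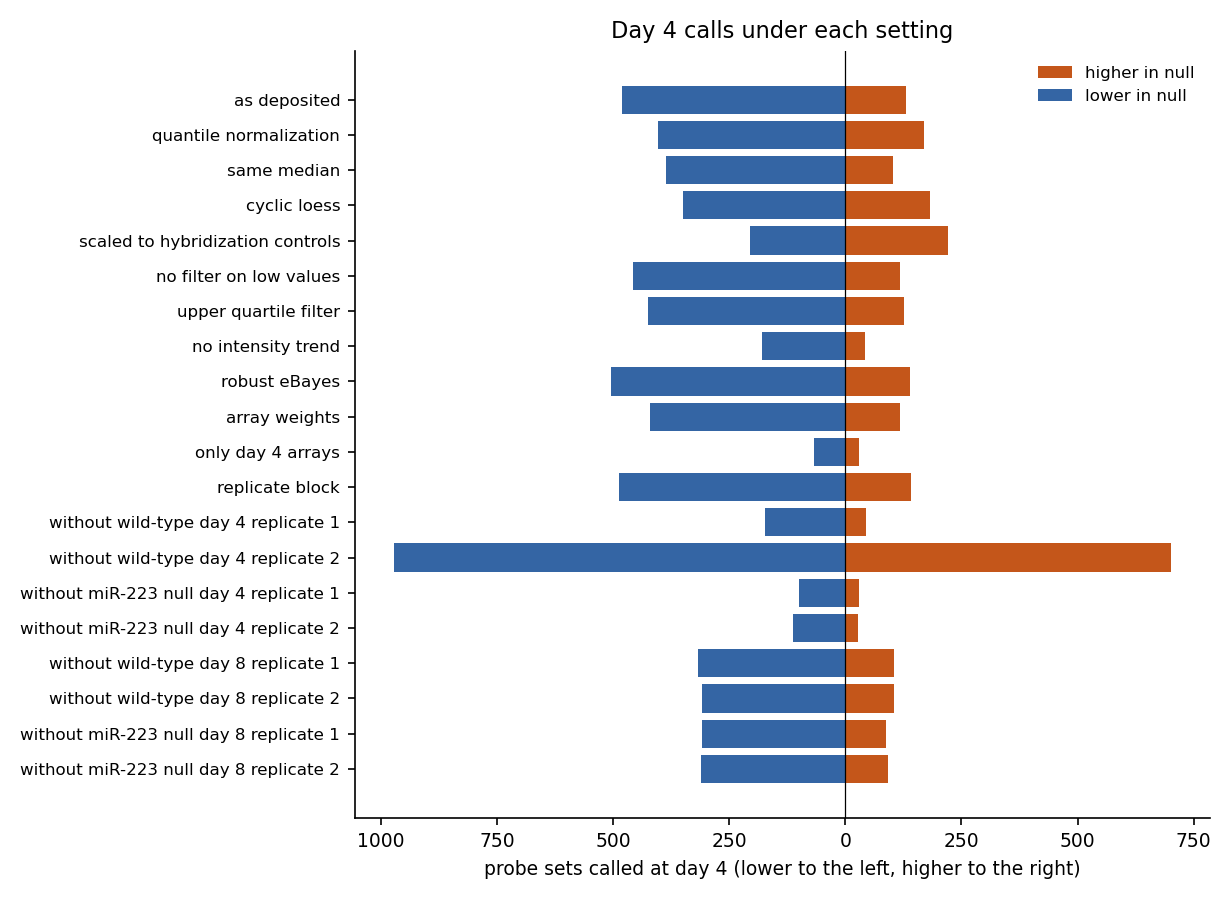
Number of probe sets called between null and wild-type progenitors at day 4 (x axis) as deposited and under each of the 19 other settings, with falls to the left in blue and rises to the right in orange. The bar without wild-type day 4 replicate 2 is the longest (1674 calls) and the bar for the 4 day 4 arrays alone is the shortest (98 calls).

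Calls were more frequent among brightly measured probe sets. Divided into quartiles of mean signal, 1.05% of the dimmest probe sets (means from 5.51 to 6.55) were called, then 1.85%, 3.13% and 4.87% of the brightest (means from 9.29 to 14.6). The standard error of a change fell along the same order, with a median of 0.147 in the dimmest quartile and 0.0764 in the brightest, so smaller changes could be called there. Rises made up a like share of the calls in each quartile, between 19.3% and 23.1%. Without any filter on low signal 575 of 45037 probe sets were called, 65 of them below the filter value.

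Probe sets are also named by how specific their probes are, and this was not used to choose them. On Affymetrix arrays the ending _at marks probes for a single transcript, _a_at probes shared by transcripts of the same gene, _s_at probes shared by several genes, and _x_at probes that may also bind unrelated transcripts. Calls were made for 2.90% of the 16339 plain _at probe sets, 2.32% of the 3227 _a_at, 2.17% of the 1477 _s_at and 2.17% of the 1476 _x_at probe sets. Rises were 32.0% of the calls among _a_at and 20.0% among plain _at probe sets. Falls outnumbered rises among the calls of every kind.

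The largest rise by far was that of 1427451_A_AT. It read 4.61 and 3.85 on the wild-type arrays and 11.12 and 11.16 on the null arrays. The signal was thus near background in wild type and among bright probe sets in null, a difference of 6.91 on the log2 scale (SE 0.20, limma, adjusted p = 5.7e-08, n = 2). In day 8 neutrophils it read 4.41 and 4.19 in wild type and 12.08 and 12.26 in null, so the pattern was present in all 4 null arrays and in none of the wild-type arrays. A difference between the days was not called by limma's interaction test (log2 difference 0.96, SE 0.28, adjusted p = 0.12).

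The next rise, 1445226_AT, had its difference in progenitors. It read 6.25 and 6.62 in wild type and 8.97 and 8.76 in null cells at day 4, which is 5.39-fold higher (log2 change 2.43, SE 0.18, limma, adjusted p = 0.00013, n = 2). At day 8 it was near background on all arrays, 4.66 and 4.95 in wild type and 5.43 and 5.07 in null. The null effect changed by -1.99 from day 4 to day 8 (SE 0.25, interaction adjusted p = 0.0066), where the signal was low in both genotypes. The third and last rise of 4-fold or more read 9.51 and 8.58 in wild type against 11.25 and 11.69 in null cells (5.36-fold, SE 0.30 on the log2 scale, limma, adjusted p = 0.0028). It was raised to a like extent at day 8 (log2 change 2.20, adjusted p = 0.0021).

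The largest fall was that of 1455869_AT, with 8.59 and 10.19 in wild type and 4.60 and 4.62 in null cells. Signal was high but unequal in the wild-type arrays (SD 1.14) and near background in the null arrays. The log2 change was -4.78 (SE 0.46, limma, adjusted p = 0.00058, n = 2), and the SE, pooled over 4 groups, is smaller than the wild-type spread. At day 8 the same probe set read 6.66 and 7.91 in wild type and 4.58 and 4.59 in null, again higher in wild-type replicate 2 than in replicate 1.

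The second fall, 1438239_AT, had a larger difference at day 4 than at day 8. It read 7.89 and 8.95 in wild-type progenitors and 4.29 on both null arrays, a log2 change of -4.12 (SE 0.27, limma, adjusted p = 9.3e-05, n = 2). The SE, pooled over 4 groups, is again smaller than the wild-type spread at day 4 (SD 0.75, against 0 in null). The test between the days uses the same pooled spread. At day 8 it read 5.54 on both wild-type arrays and 4.78 and 4.55 in null (log2 change -0.88, limma, adjusted p = 0.090). The null effect differed between the days (3.25, SE 0.38, interaction adjusted p = 0.0059), but the low wild-type signal at day 8 left little room for a fall. The identical null readings are not peculiar to this probe set: 29 tested probe sets had the same value, to all 6 decimals of the deposited table, on both null day 4 arrays and 13 on both wild-type day 4 arrays. The size of a change with 1 side near background depends on the authors' background correction.

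**Figure D3:**
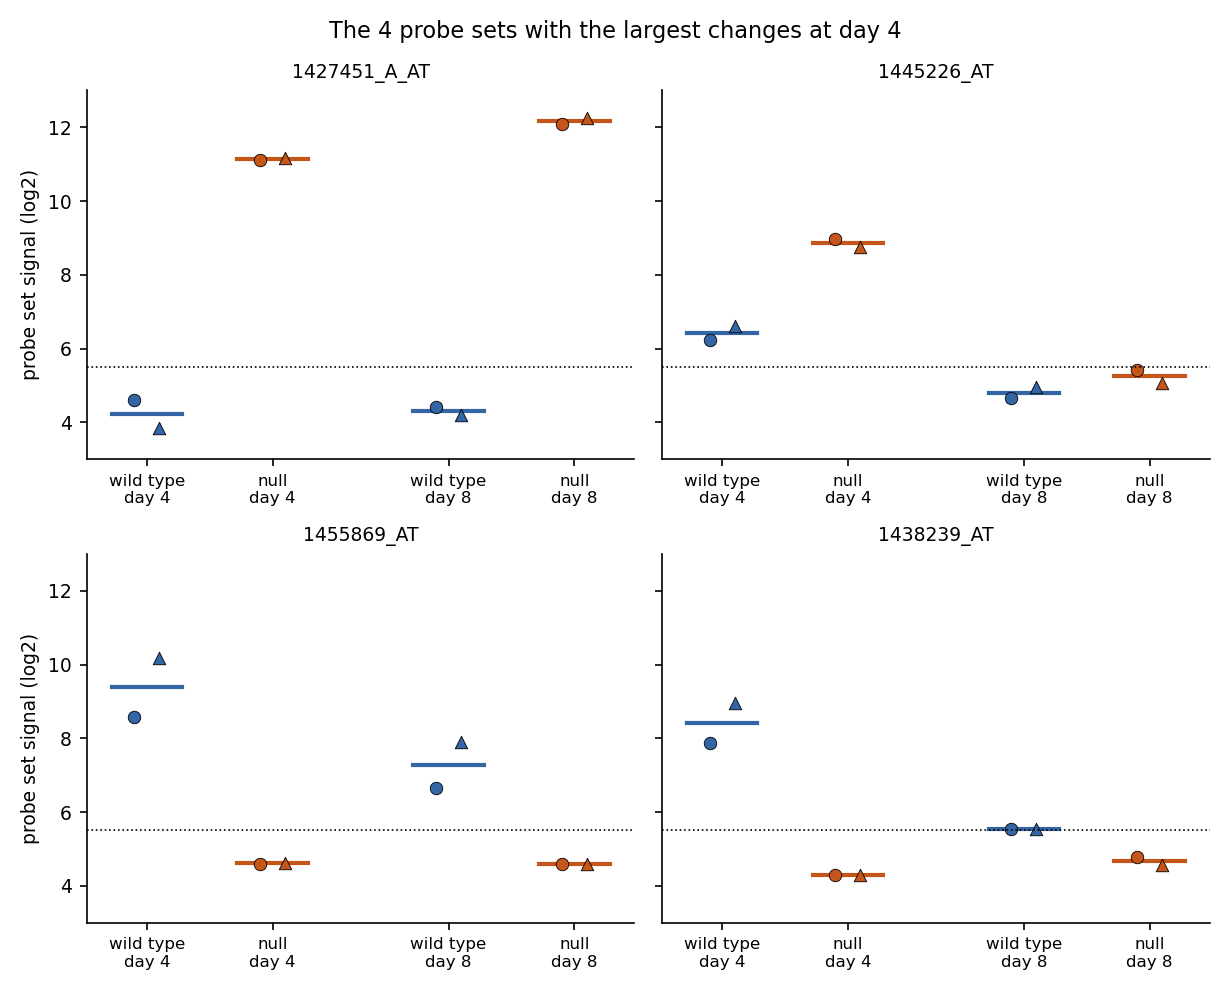
Log2 signal (y axis) of the 2 largest rises (top) and the 2 largest falls (bottom) at day 4 on all 8 arrays, grouped by genotype and day (x axis); circles are replicate 1, triangles replicate 2, bars the mean of 2 arrays, and the dotted line the filter value of 5.51. 1427451_A_AT is high on all 4 null arrays only, and 1438239_AT is high only in wild-type progenitors.

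Of the falls of 2-fold or more, 2 were not called, and the larger shows what the wild-type spread does. It read 6.54 and 10.65 on the wild-type arrays and 4.55 and 5.11 on the null arrays, a 13.6-fold lower mean without overlap, but with an SE of 1.36 and a limma adjusted p of 0.17. At day 8 it read 5.36 and 9.84 in wild type. The third largest fall, which was called, read 8.64 and 10.54 in wild type and 5.55 and 5.82 in null progenitors (limma, adjusted p = 0.0052), with 7.25 and 8.77 in wild type at day 8. In 3 of the 5 largest falls, then, wild-type replicate 2 exceeded replicate 1 by over 1 log2 unit on both days. The fifth and sixth falls by size, both called, had the higher value in wild-type replicate 1 at day 4, with 8.56 and 7.71, and 9.96 and 9.48, against null values of 5.34 and 5.20, and 7.77 and 7.57.

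Among the 48 called falls of 2-fold or more, the null mean was below the filter value for 11 and the wild-type mean for 1. The lower end of such changes is near background, so their fold is approximate. In the 13 rises of 2-fold or more, the wild-type mean was below it for 2. Over all 482 falls, 44 had a null mean below the filter value, against 1053 of all 22519 tested. The filter value is a median of means and not a limit of detection. The filter itself leaves few group means below it, so these counts do not show which levels were above background.

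The only transcripts that the table names are the mouse control probe sets, 19 in all, and 0 of these were called between the genotypes at day 4 by limma (1 at an unadjusted p below 0.05). Of the 19, 16 had a positive change, against 48.6% of all tested probe sets. Of the 10 without overlap, 9 were higher in null and 1 was lower. Among all tested probe sets 48.9% had no overlap, 21.1% with the null higher and 27.8% with the null lower. Many of the 19 share a transcript, so they are not independent. The transferrin receptor, which imports iron and is abundant in dividing and haem-making cells, had the largest positive differences. Its 3' probe set read 8.56 and 8.85 in wild type and 9.17 and 8.91 in null progenitors, and its middle probe set 7.06 and 7.48 against 7.59 and 7.49. Its 5' probe set read 6.68 and 7.16 in wild type and 7.16 and 7.18 in null. At all 3 positions both null arrays were above both wild-type arrays, but the nearest arrays of the genotypes almost met, and wild-type replicate 1 was the lowest array. The log2 differences were 0.34 (95% interval -0.02 to 0.70, adjusted p = 0.31), 0.27 (-0.08 to 0.62, adjusted p = 0.41) and 0.25 (-0.15 to 0.66, adjusted p = 0.52) by limma with n = 2, and all 3 intervals include zero. Without wild-type replicate 1 they were 0.20, 0.06 and 0.02, and without wild-type replicate 2 they were 0.482, 0.481 and 0.495. Leaving out 1 of the null arrays gave 0.21 to 0.47.

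The middle probe set of 18S ribosomal RNA was the one with an unadjusted p below 0.05. It read 7.44 and 7.69 in wild type and 6.95 and 7.31 in null progenitors, without overlap, a log2 difference of -0.43 (SE 0.16, limma, adjusted p = 0.19, n = 2). The 3' probe set (7.85 and 8.03 against 7.77 and 7.93) and the 5' probe set (7.99 and 9.17 against 8.42 and 8.76) of the same RNA overlapped between the genotypes. The 3 positions thus did not move together, and ribosomal RNA has no long poly(A) tail for the standard labelling to start from.

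Beta-actin, the cytoskeletal protein, and Gapdh, a glycolytic enzyme, were nearly level. Beta-actin at its 5' end read 13.94 and 14.04 in wild type and 14.09 and 14.08 in null cells, a log2 difference of 0.09 (95% interval -0.01 to 0.20). Gapdh at its 5' end read 13.95 and 13.93 against 14.00 and 13.97 (0.05, interval -0.05 to 0.14). Both are bright, and signals near the top of the range may be compressed. The log2 signal at the 3' over the 5' end, a measure of RNA integrity and labelling, was 0.44 and 0.38 in wild type and 0.36 and 0.38 in null for beta-actin. For Gapdh it was 0.05 and -0.02 in wild type and 0.00 and -0.02 in null. For the dimmer transferrin receptor it was 1.89 and 1.69 in wild type and 2.02 and 1.73 in null. The genotypes overlapped for Gapdh, for beta-actin and for the transferrin receptor, and the array with the highest ratio was wild-type replicate 1 for the first 2 and null replicate 1 for the last. The part of RNA integrity in the calls was not tested.

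RNA carrying the B1 repeat read 12.35 and 12.41 in wild type and 12.54 and 12.40 in null progenitors, and overlapped. The probe sets for the B2 repeat differed by 0.10 and 0.01. Pyruvate carboxylase, a mitochondrial enzyme that feeds the citric acid cycle, was dim (4.78 to 6.44 at its 4 probe sets) and differed by at most 0.18, at a middle probe set that read 6.21 and 6.05 in wild type and 6.30 and 6.33 in null (95% interval -0.08 to 0.44).

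**Figure D4:**
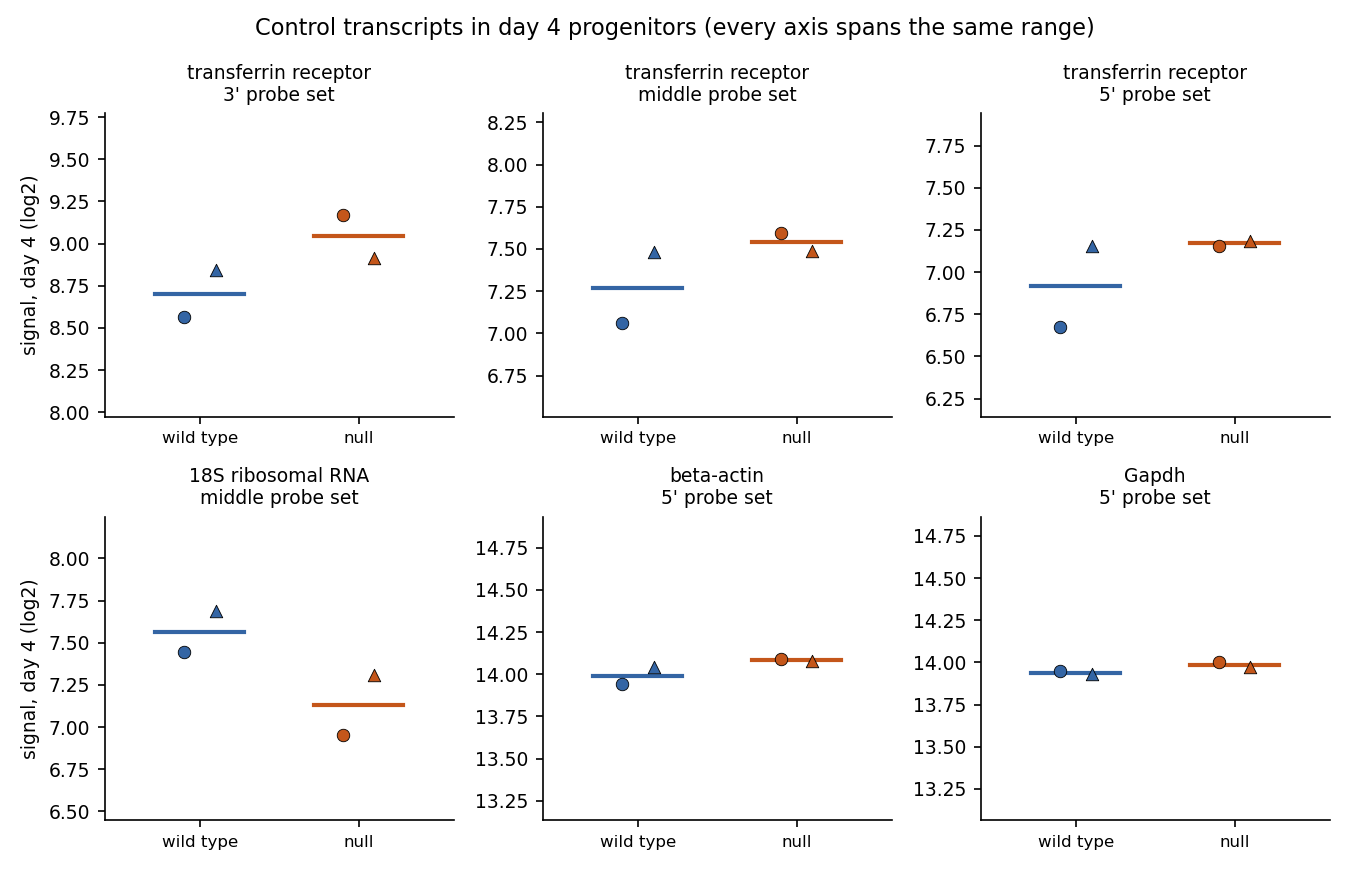
Log2 signal (y axis, the same span in each panel) of 6 control probe sets in day 4 progenitors by genotype (x axis); circles are replicate 1, triangles replicate 2 and bars the mean of 2 arrays. Wild-type replicate 1 is the lowest array for the transferrin receptor at all 3 positions, the middle 18S ribosomal RNA probe set is lower in null, and beta-actin and Gapdh are nearly level.

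Next, the same probe sets were read on the day 8 arrays, which the day 4 test did not use for its difference, only for its spread. Most rises were called again there. Of the 131 probe sets called higher in null progenitors, 81 (61.8%) were also called higher in null neutrophils, against 4.09% of all tested (5.31% counting both directions), and 0 were called lower there. Their median log2 change was 0.51 at day 4 and 0.50 at day 8. In 116 of the 131 the null effect was not called different between the days. Of the others, 10 had a higher effect at day 8 and 5 a lower one. Each probe set has the same SE in the day 4 and day 8 tests. The rises had a median SE of 0.0893, against 0.115 for all tested, which makes a call at day 8 easier. The share called again is thus not independent of the day 4 call. Shares called at day 8, for the rises and for the falls below, are given as deposited only. At day 8 the hybridization controls averaged 9.95 and 10.13 on the wild-type arrays and 10.09 and 10.18 on the null arrays. How scaling to them moves those shares was not tested.

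Fewer of the falls were called again. Of the 482 probe sets called lower in null progenitors, 51 (10.6%) were called lower at day 8, against 1.22% of all tested, and 11 were called higher there (2.28% against 4.09%). Their median log2 change went from -0.55 at day 4 to -0.05 at day 8, with the middle 50% at day 8 between -0.23 and 0.08. The difference between the days was itself called by limma for 125 of the 482 (25.9%, against 1.66% of all tested), 124 of them with a higher effect at day 8. Since a call at day 4 enters the interaction with the same arrays, a share above the background is built into that count. The shares called at day 8 also rest on the SE shared with day 4, with a median of 0.101 for the falls. For 308 falls neither the day 8 effect nor the difference between the days was called, so for these it cannot be said whether they belong to day 4. The interaction rested on the scaling as well, with 348 higher (1.55%) and 25 lower (0.111%) of all tested probe sets as deposited and 61 and 63 after scaling to the hybridization controls.

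Of the 48 falls of 2-fold or more, 43 had a negative change at day 8, 10 were called lower and 0 higher, and the median went from -1.21 to -0.38. The difference between the days was called for 18. Of the 13 rises of 2-fold or more, 7 were called higher at day 8, 12 had a positive change, and the difference was called for 1, which is 1445226_AT.

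**Figure D5:**
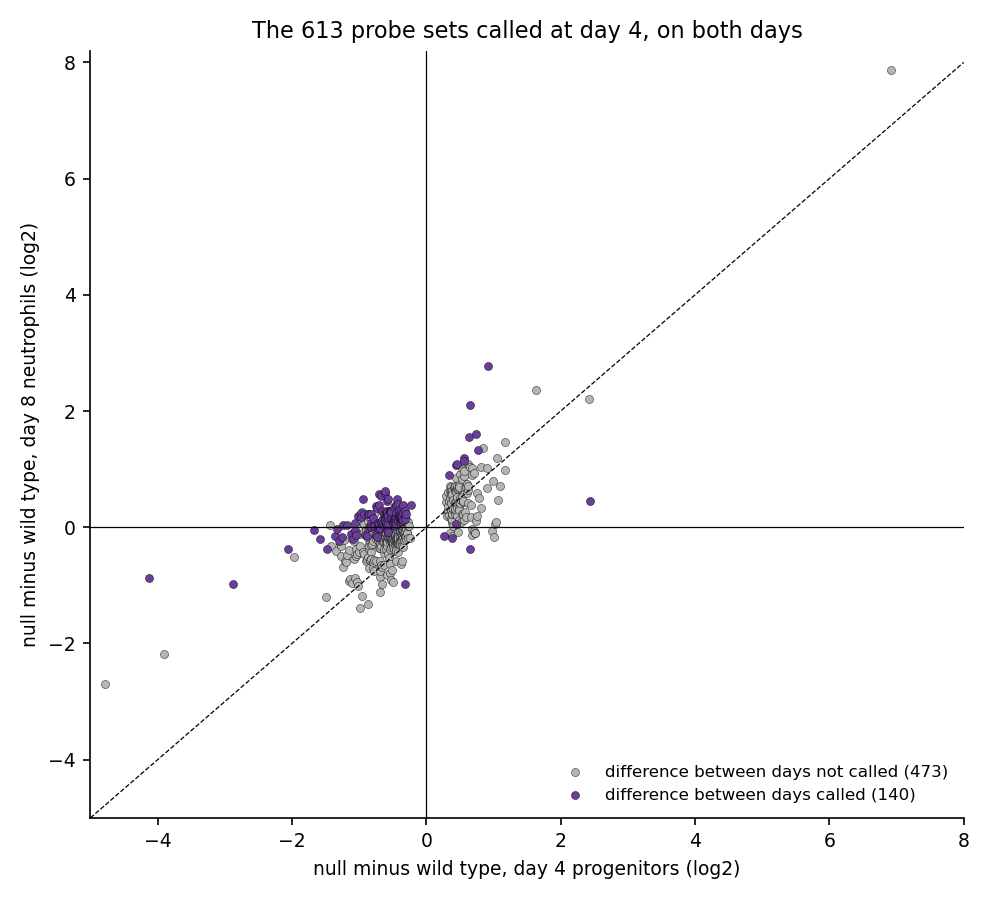
Null minus wild type (log2) in day 8 neutrophils (y axis) against the same difference in day 4 progenitors (x axis) for the 613 probe sets called at day 4; the dashed line marks equal change, and purple points are the 140 for which the difference between the days was called. Points of the rises lie about the dashed line and most of the falls lie between it and zero or above zero at day 8.

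The called probe sets were also read over the stages, by the median level in each array and by how many members shared its direction. The 482 falls had medians of 8.67 and 8.60 in wild-type and 8.01 and 8.02 in null progenitors, and 9.65 and 9.69 in wild-type and 9.57 and 9.62 in null neutrophils. These medians were higher in neutrophils than in progenitors of either genotype, while the median of all tested probe sets was 7.93 to 8.00 at day 4 and 7.72 to 7.80 at day 8. Of the 482, 340 (70.5%) were brighter at day 8 than at day 4 in wild type and 378 (78.4%) in null cells, against 48.4% and 50.1% of all tested. The medians of the 48 falls of 2-fold or more were 8.57 and 8.51 in wild-type and 7.09 and 7.15 in null progenitors, and 9.59, 9.89, 9.07 and 9.14 at day 8. In wild type 34 of these 48 were brighter at day 8 and 14 were dimmer, among the latter the 3 largest called falls. Side by side, the median change from day 4 to day 8 of the 482 was 0.75 in wild type and 1.20 in null cells, against -0.04 and 0.00 for all tested. These medians share their day 4 arrays with the comparison that picked the probe sets, so they are a description only.

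The medians of the 131 rises ran the other way over the stages. They were 8.98 and 9.04 in wild-type and 9.64 and 9.58 in null progenitors, and 8.61, 8.61, 9.17 and 9.13 in wild-type and null neutrophils. Of the 131, 93 (71.0%) were dimmer at day 8 than at day 4 in wild type and 83 (63.4%) in null cells, against 51.6% and 49.9% of all tested. The median change from day 4 to day 8 was -0.54 in wild type and -0.49 in null cells. These counts and medians also share their day 4 arrays with the comparison that picked the probe sets, so they are a description only. The median difference between the genotypes stayed near that of day 4, while 50 of the 131 were not called at day 8 and 13 had a negative change there.

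How far each array had moved towards the neutrophil was read from the probe sets that changed most with stage in wild-type cells. The 114 that were called at least 16-fold higher in neutrophils (0.506% of those tested) had medians of 5.56 and 5.46 in wild-type and 5.34 and 5.43 in null progenitors, against 10.69 to 10.80 at day 8. The progenitor medians lay near the filter value of 5.51, so no order of the arrays was read from them. The 79 that were called at least 16-fold lower in neutrophils (0.351%) had medians of 9.63 and 9.83 in wild-type and 9.82 and 9.86 in null progenitors, against 4.86 to 5.09 at day 8, and wild-type replicate 1 was the lowest progenitor array. These probe sets were picked for a change of at least 16-fold between the stages, so that change is no measure for gaps between progenitor arrays. The sets were chosen with these wild-type arrays. The part of stage in the day 4 calls was not tested.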

How the data were processed

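Total RNA of sorted cells was hybridized to Affymetrix arrays after the standard biotin labelling, per the labels' protocols. The values deposited by the authors are log2 probe set signals, with the base taken from their range. The submitters' processing notes name GCOS, with no version. How probes were summarized, background corrected and normalized is not stated in any source used here. Over the probe sets that are not controls, the medians of the 8 arrays spanned 0.0537, so no further scaling was applied. A background step that pulls dim probe sets to a floor changes their folds.

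Probe sets without controls were filtered at the median of their means over 8 arrays. Limma 3.58.1 in R 4.3.3 fitted 4 group means with an intensity trend (4 residual degrees of freedom); the tests were two-sided with Benjamini-Hochberg adjustment. The 19 mouse control probe sets were tested in a second fit that added them. The median SE of a day 4 change was 0.115, and the number of arrays limits this precision. The steps were run on simulated data with independent noise for each array and probe set. That simulation had no effect shared across an array, so it does not cover the spread between the wild-type arrays. The identifiers printed are the called probe sets of largest change per direction whose arrays did not overlap, 2 of each. Alternatives were 4 rescalings, 2 filters, 2 variance models, array weights, day 4 arrays alone, the replicate number as a block, and each array left out. The gene lists, cell type markers and other probe sets of a gene could not be used, as no identifier was paired with a gene. The members and lists were chosen with earlier results of these data known. Sequences are from RefSeq.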

Additional observations from a re-analysis of the deposited data

Results flagged for a closer look

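A test of the difference between the days (limma's interaction term, Benjamini-Hochberg adjusted p below 0.05) marked 348 probe sets whose null effect was higher in day 8 neutrophils than in day 4 progenitors and 25 whose effect was lower. Of the 2 rises and 2 falls given by identifier, 2 were among them. For 1438239_AT the effect was higher at day 8 by 3.25 on the log2 scale, since its fall at day 4 was larger. Its wild-type signal at day 8 (5.54 on both arrays) left little room for a fall. For 1445226_AT the difference was -1.99, since its rise was seen at day 4. Both calls were kept in the 17 alternatives that give this difference, with adjusted p up to 0.039 and 0.042.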

How the results depend on the processing

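The 4 probe sets given by identifier kept direction and call at day 4 under every alternative in which they were tested (log2 changes from 6.53 to 7.29, 2.24 to 2.62, -5.58 to -3.98 and -4.66 to -3.59), and the alternatives called 0 of the 19 control probe sets. The 613 day 4 calls (131 higher, 482 lower) became 222 (43 and 179) without the intensity trend and 98 (30 and 68) with day 4 arrays alone; scaled to hybridization controls, 221 were higher and 205 lower. Leaving out 1 of the 8 arrays, where the lone array of a group is assumed to vary like the others, gave 129 to 1674 calls, 27 to 701 higher and 100 to 973 lower. The 373 calls of the difference between days (348 higher, 25 lower) became 211 after quantile normalization (186 higher), 198 after cyclic loess (169 higher), 124 after scaling to hybridization controls (61 higher, 63 lower) and 129 without the trend (118 and 11). Leaving out 1 array gave 48 to 893, 40 to 729 higher and 4 to 164 lower. The shared replicate numbers are not stated to pair cultures. Within a day, the replicate differences of the 2 genotypes correlated at 0.09 at day 4 and -0.05 at day 8. Whether replicate numbers pair the days within a genotype was not tested. Some of the largest falls had wild-type replicate 2 above replicate 1 on both days. With the replicate block 630 were called at day 4 (142 higher, 488 lower). The causes were not tested. Signal near background limits the size of changes, and 2 arrays a group limit every count.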
